A study of Mus musculus with 12 samples.

Results

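Tsc22d3 and 9 other genes known to be induced by glucocorticoids (Fkbp5, Sgk1, Zbtb16, Sult1a1, Plin4, Errfi1, Ddit4, Pdk4 and Nfkbia) were followed in the septum of lactating and virgin female mice. The 10 genes were taken by gene symbol from 19938 genes with a symbol of their own on the array, and each was read by 1 of the 35556 transcript clusters, the sets of probes that report 1 transcript. Tsc22d3 was chosen by its small p in the lactating against virgin contrast of these same arrays, and the other 9 were chosen with earlier results of that contrast known. The differences of the 10 genes between the groups are therefore given as a description, without a test. The fact that all of them lay on the same side is no independent support for a change.

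Glucocorticoids, of which corticosterone is the main one in mice, enter the cell and bind the glucocorticoid receptor (Nr3c1) and, with higher affinity, the mineralocorticoid receptor (Nr3c2). The hormone-bound receptor leaves its chaperones, moves to the nucleus and binds paired short sites in DNA called glucocorticoid response elements, which raises the transcription of nearby genes. Several of the induced genes act back on the hormone's own pathway or restrain others, as Fkbp5 lowers the affinity of the receptor for the hormone and Tsc22d3 and Nfkbia restrain the inflammatory factor NF-kB. The septum lies between the hippocampus and the hypothalamus and takes part in the control of anxiety, social behavior and maternal care.

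All mice came from a line bred for high maternal aggression out of outbred hsd:ICR stock, so the data speak for 1 line. The 6 lactating females had lived with a breeder male, then alone, and were on postpartum days 6 to 8. The 6 virgin females had lived with other females over the same time, then alone, and were of matched age, about 70 days. The virgin mice were in several estrous stages other than proestrus, and which mouse was in which stage is not given in the labels. Each mouse gave 1 array of RNA from punched septum, which the study's methods describe as the whole septum and the labels' protocol as its lateral part. Lactation, pup contact and pregnancy came together in 1 group and cannot be told apart.

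The median intensity of the 12 arrays ran from 320 to 339, and pairs of arrays correlated at 0.987 to 0.994 over all clusters. All 8 markers of the septum were measured, and their summed intensity was 15910 to 19290 in lactating and 15713 to 18879 in virgin mice. In limma, 0 of 35556 clusters (0%) had an adjusted p under 0.05, and the smallest adjusted p was 0.0715. At an unadjusted p under 0.05, 1160 clusters (3.26%) were higher and 1668 (4.69%) lower in lactating mice. With 1 cluster per gene, 769 genes (3.86%) were higher and 963 (4.83%) lower. In a piece of whole tissue, fewer cells of a type and less RNA per cell cannot be told apart.

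Tsc22d3, also called Gilz, encodes a leucine zipper protein that binds NF-kB and other factors and carries part of the anti-inflammatory action of the hormone. Its gene lies at chrX:140539528-140600522 (GRCm38.p6, minus strand). Its intensity was 781.5, 643, 701, 648.5, 699.6 and 549.9 in lactating mice 1 to 6. In virgin mice 1 to 6 it was 484, 428, 584, 523, 536 and 449.8. Of the lactating mice 5 lay above every virgin mouse, and only lactating 6 fell inside the virgin range. The means were 671 ± 77.3 and 501 ± 58.1 (SD, n = 6 each), which is 33.9% higher in lactating mice, or a log2 difference of 0.41 (SE 0.0947, 95% interval 0.20 to 0.62). By the size of the difference it stood at place 13 of 19938 genes.

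Fkbp5 and Sgk1 are among the most widely used readouts of the hormone. Fkbp5 encodes a co-chaperone that sits on the receptor, at chr17:28398753-28486149. The intensity of Fkbp5 was 527.5, 544, 533, 537, 552 and 485 in lactating mice 1 to 6, and 459, 411, 522, 518, 491 and 487 in virgin mice 1 to 6. The first 5 lactating mice lay within a narrow range just above the highest virgin mouse, while lactating 6 fell below 4 of the virgin mice. The means of Fkbp5 were 529.6 ± 23.7 and 481 ± 41.4, a log2 difference of 0.14 (SE 0.0571).

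Sgk1 encodes a kinase that controls ion channels and transporters, at chr10:21882184-21999903. The intensity of Sgk1 was 1626, 1219, 1167, 1165, 1234 and 981 in lactating mice 1 to 6. In virgin mice 1 to 6 it was 974.6, 764, 1140.2, 899.6, 989 and 1115. Lactating 1 stood above the rest, lactating 6 lay inside the virgin range, and the other 4 were close together just above it. The means of Sgk1 were 1232 ± 213 and 980.5 ± 139, a log2 difference of 0.32 (SE 0.128).

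Zbtb16 encodes the zinc finger transcription factor PLZF, at chr9:48651797-48836225. The intensity of Zbtb16 was 757, 606, 727, 1167, 745 and 691 in lactating mice 1 to 6. In virgin mice 1 to 6 it was 464, 489, 681, 539, 572 and 565. Lactating 4 stood far above all others, and lactating 2 alone fell inside the virgin range, whose top was virgin 3. The means of Zbtb16 were 782 ± 196 and 552 ± 76.3, a log2 difference of 0.47 (SE 0.15), the largest of the 10 genes. Without lactating 4 the log2 difference was 0.35. Lactating 4 also had the highest summed intensity of 7 markers of excitatory neurons of cortex and hippocampus, 8820, against 2852 in the lowest lactating mouse and 3002 to 4623 in virgin mice, and the lowest sum of 6 striatal markers, 17553, against 23410 to 28137 in virgin mice. The part of these markers in the Zbtb16 value was not tested.

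**Figure D1:**
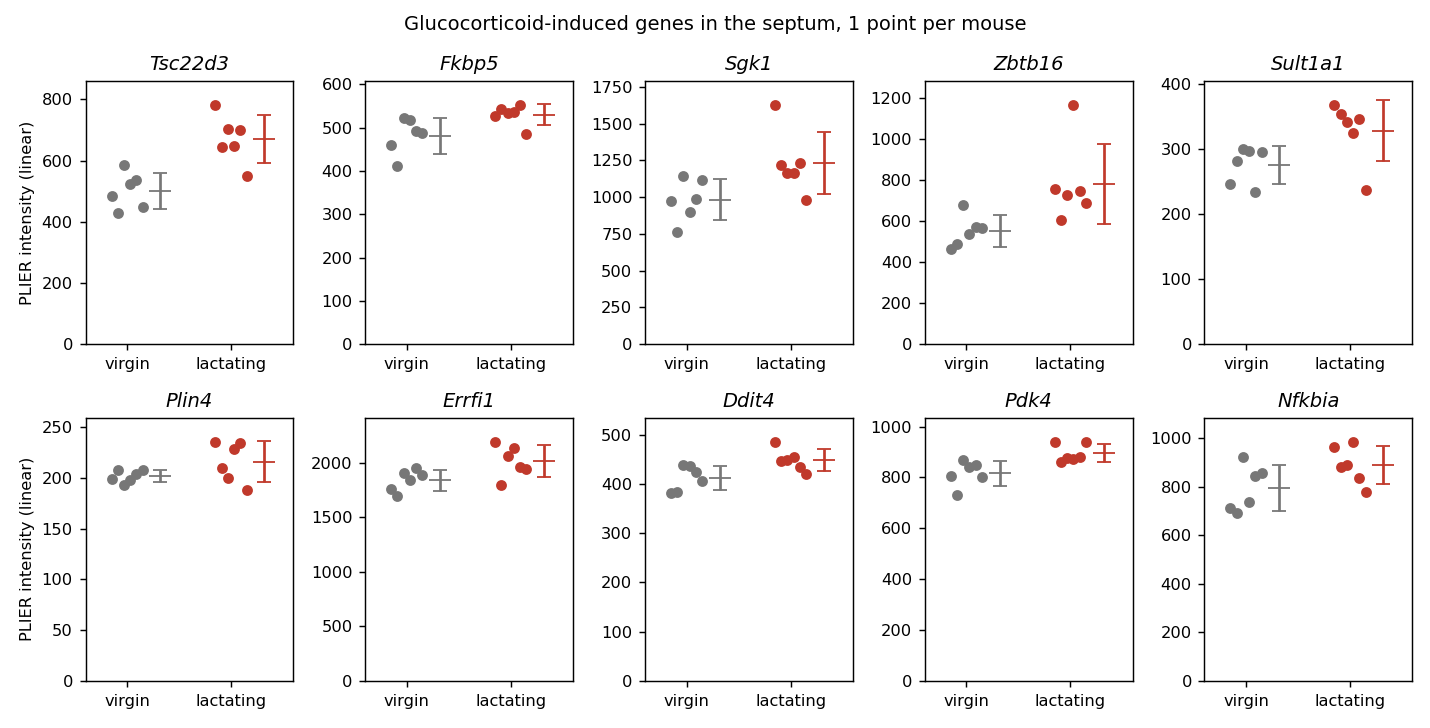
Intensity (PLIER, linear scale) of each of the 10 genes in 6 virgin (grey) and 6 lactating (red) mice, with 1 point per mouse and the mean ± SD beside the points. For Tsc22d3, Fkbp5, Sgk1, Zbtb16, Sult1a1 and Pdk4, 5 of the 6 lactating mice lay above every virgin mouse.

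Of the genes that act on metabolism, Sult1a1, a sulfotransferase for phenolic compounds and drugs at chr7:126672865-126690443, differed most. The intensity of Sult1a1 was 368, 355, 341, 325.5, 346 and 236.5 in lactating mice 1 to 6, and 247, 281, 300.2, 297, 233 and 295 in virgin mice 1 to 6. Lactating 6 was nearly as low as the lowest virgin mouse, and the other 5 lactating mice were all above the virgin range. The means of Sult1a1 were 329 ± 47.3 and 276 ± 28.6, a log2 difference of 0.23 (SE 0.108), and 0.32 without lactating 6.

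Pdk4, at chr6:5483351-5496278, encodes the kinase that shuts down pyruvate dehydrogenase and so spares glucose. The intensity of Pdk4 was 941, 860.2, 878, 873, 879.9 and 938 in lactating mice 1 to 6, and 804, 730.4, 871, 839, 851 and 801 in virgin mice 1 to 6. Virgin 3 alone reached into the lactating range, and unlike in most of the other genes lactating 6 was among the highest. The means of Pdk4 were 895 ± 35.2 and 816 ± 49.8, a log2 difference of 0.13 (SE 0.0426).

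Plin4, at chr17:56100587-56109948, encodes a coat protein of lipid droplets and differed least of the 10 genes. The intensity of Plin4 was 236, 209, 199.8, 229, 235 and 188 in lactating mice 1 to 6, and 199, 208, 193, 198, 204 and 208 in virgin mice 1 to 6. The lactating mice spread on both sides of the narrow virgin range, with 4 above it. The means of Plin4 were 216 ± 20.1 and 202 ± 5.87, a log2 difference of 0.09 (SE 0.0541, 95% interval -0.03 to 0.21).

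The last 3 genes restrain growth or inflammatory signaling. Errfi1, at chr4:150853796-150868889, encodes the feedback inhibitor Mig6 of the epidermal growth factor receptor. Its intensity ran from 1798 to 2196 in lactating mice (median 2011) and from 1693.5 to 1951 in virgin mice (median 1868). Of the lactating mice 4 lay above every virgin mouse, and the log2 difference was 0.13 (SE 0.0528). Ddit4, at chr10:59949675-59951770, encodes REDD1, an inhibitor of the growth kinase mTORC1 that also answers to hypoxia and stress. Its intensity ran from 421 to 486 in lactating (median 448) and from 383 to 439 in virgin mice (median 415). For Ddit4, too, 4 lactating mice lay above every virgin mouse, and the log2 difference was 0.12 (SE 0.0444). Nfkbia, at chr12:55489409-55492647, encodes the inhibitor that holds NF-kB in the cytoplasm. Its intensity ran from 781 to 986 in lactating (median 886) and from 691 to 925 in virgin mice (median 792). Of the lactating mice 2 lay above every virgin mouse, the fewest for any of the 10 genes, and the log2 difference was 0.16 (SE 0.0847, 95% interval -0.02 to 0.35).

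In all 10 genes the lactating mean was higher, with log2 differences from 0.09 to 0.47 and a median of 0.15. Of all 19938 genes 47.9% had a positive difference, the median was -0.0043, and the range from the 5th to the 95th percentile was -0.14 to 0.11. An unadjusted limma p under 0.05 was reached by 8 of the 10 genes, against 3.86% of all genes in that direction. Since the genes were chosen on this contrast, nothing is read from that count. In no gene were the groups free of overlap. Intervals come from the unpooled standard error of each gene, whereas limma pools the spread across clusters, so that for Sult1a1 the interval reached -0.01 although its limma p passed.

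**Figure D2:**
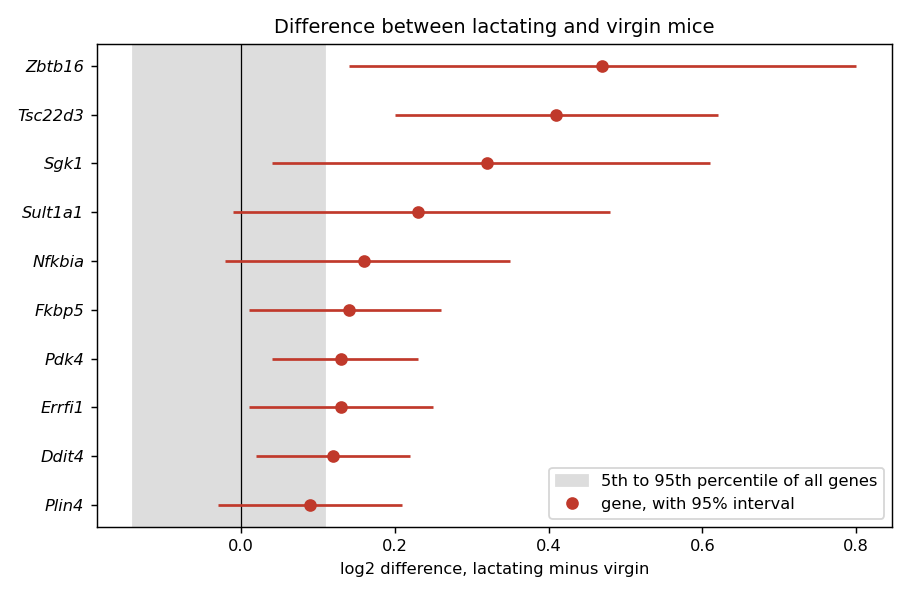
Log2 difference, lactating minus virgin, for each of the 10 genes, with its 95% interval (n = 6 mice a group). The grey band holds the 5th to 95th percentile of all 19938 genes, -0.14 to 0.11, and all points but Plin4 at 0.09 lie above it.

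The same mice stood high or low for many of the 10 genes. Lactating 1 was the highest of its group for 7 genes, and lactating 1 and lactating 4 were above every virgin mouse for all 10. Lactating 3 and lactating 5 were above every virgin mouse for 8 genes, and lactating 2 for 6. Lactating 6 was the lowest of its group for 7 genes and was above every virgin mouse for 2 genes. The counts above every virgin mouse use the contrast by which the genes were chosen. No share over all genes stands beside them, and nothing is read from them. Among the virgin mice, virgin 3 was the highest for 8 genes and virgin 2 the lowest for 6. Averaged over the 10 genes on the log2 scale, lactating 1 lay 0.13 above and lactating 6 lay -0.17 from the mean of its group, and virgin 3 and virgin 2 lay at 0.14 and -0.14.

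**Figure D3:**
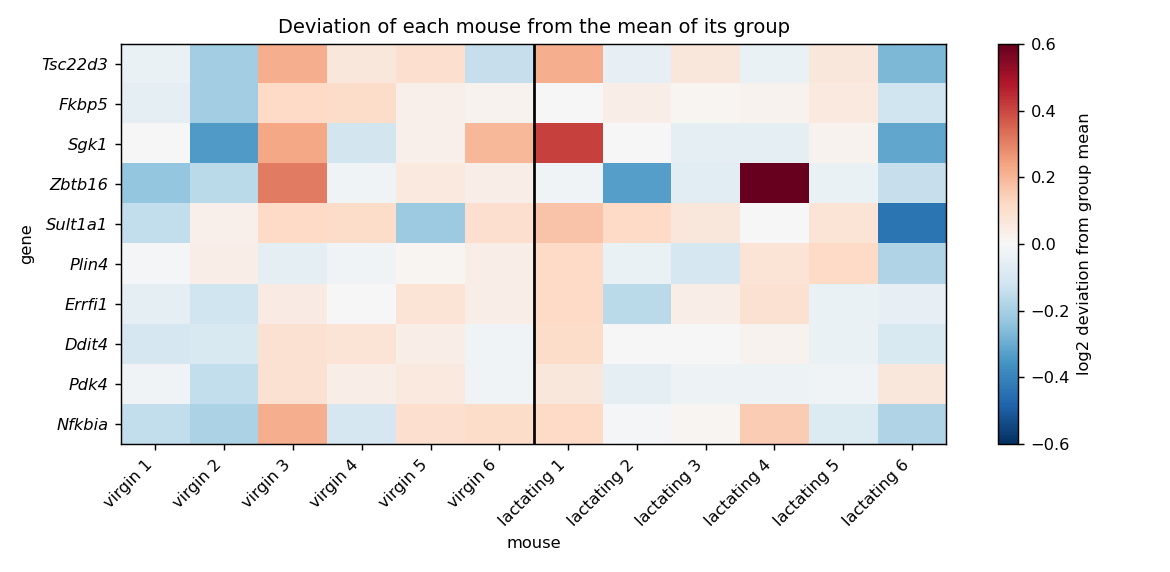
Log2 deviation of each mouse from the mean of its own group for the 10 genes (rows) in 6 virgin and 6 lactating mice (columns), red above and blue below the mean. Virgin 3 and lactating 1 are mostly red, virgin 2 and lactating 6 mostly blue, and the deepest cell is Zbtb16 in lactating 4, at 0.60.

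These deviations within a group do not use the contrast by which the genes were chosen, so their covariation with Tsc22d3 was tested. Over the 12 mice, with the group means removed, Ddit4 followed Tsc22d3 most closely, with a Pearson r of 0.81 (permutation p = 0.00454, adjusted p = 0.0409) and a Spearman rho of 0.825 (permutation p = 0.00441, adjusted p = 0.0397). The r of Ddit4 was 0.81 among lactating and 0.822 among virgin mice. Sgk1 had an r of 0.729 (permutation p = 0.0142, adjusted p = 0.0427) and a rho of 0.629 (permutation p = 0.0413, adjusted p = 0.0928). Fkbp5 had an r of 0.718 (permutation p = 0.0102, adjusted p = 0.0427) and a rho of 0.497 (permutation p = 0.12, adjusted p = 0.154). The p-values were adjusted over the 9 genes set against Tsc22d3, of which these 3 passed by r and Ddit4 alone by rho.

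The relation of the other genes to Tsc22d3 did not pass after adjustment. Nfkbia had an r of 0.62 (permutation p = 0.0437, adjusted p = 0.0983) and a rho of 0.636 (adjusted p = 0.0928), and Errfi1 an r of 0.587 (permutation p = 0.0585, adjusted p = 0.105) and a rho of 0.692 (adjusted p = 0.0928). Pdk4 had an r of 0.54 (permutation p = 0.0823, adjusted p = 0.124) and a rho of 0.538 (adjusted p = 0.142), with 0.932 among virgin and -0.0334 among lactating mice. Sult1a1 had an r of 0.511 (permutation p = 0.114, adjusted p = 0.147) and a rho of 0.469 (adjusted p = 0.166), here with 0.876 among lactating and -0.0271 among virgin mice. Plin4 had an r of 0.323 and a rho of 0.175 (permutation p = 0.367 and 0.623), and Zbtb16 an r of 0.307 and a rho of 0.531 (permutation p = 0.348 and 0.0943). Plin4 ran with Tsc22d3 among lactating mice (0.729) and against it among virgin mice (-0.849). The difference between the groups in these r values was not tested.

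The relations were also computed with mice left out. Lactating 6 and virgin 2 were left out as the mice whose Tsc22d3 deviation from the group mean lay farthest from the median deviation. The r of Ddit4 was then 0.703 (permutation p = 0.0437), that of Sgk1 0.45 (permutation p = 0.193) and that of Fkbp5 0.397 (permutation p = 0.358). Leaving out the most extreme mice narrows the range of Tsc22d3 and tends to lower r. The lower values therefore cannot show whether the relations of Sgk1 and Fkbp5 rested on those mice. Without the same mice Errfi1 stood at 0.474, Nfkbia at 0.323, Sult1a1 at 0.191, Zbtb16 at 0.157 and Plin4 at 0.00102. Pdk4 went the other way and rose to 0.952 (permutation p = 0.00018), and it alone then passed after adjustment. The median r of the 9 genes was 0.587 over 12 mice and 0.397 over 10. When single mice were left out, the number of genes that passed ran from 0 to 4, and it was 0 without lactating 4 and without virgin 2, 3, 4 or 5, and 1 without lactating 1, 5 or 6 or virgin 1. The r values of the 3 genes that passed changed less, from 0.751 to 0.869 for Ddit4, 0.63 to 0.903 for Sgk1 and 0.637 to 0.824 for Fkbp5, and without virgin 4, for example, they were 0.824, 0.772 and 0.725 at an adjusted permutation p of 0.0517.

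**Figure D4:**
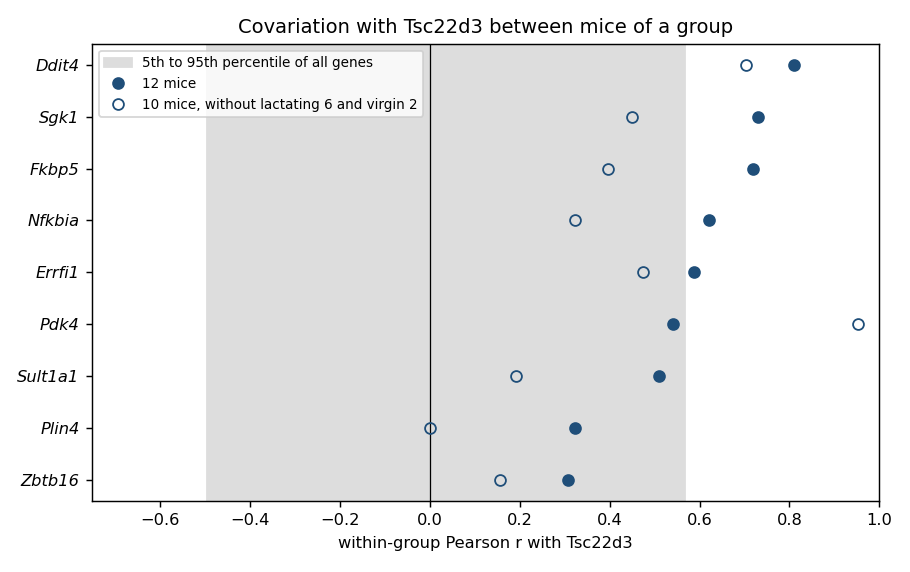
Pearson r with Tsc22d3 of the other 9 genes after removal of the group means, over 12 mice (filled) and over the 10 mice left without lactating 6 and virgin 2 (open). The grey band holds the 5th to 95th percentile of all genes over 12 mice, -0.495 to 0.567, and over 12 mice Ddit4 lies farthest beyond it, at 0.81. No band was computed over 10 mice, where Pdk4 stood at 0.952 and Ddit4 at 0.703.

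As a description, 7 of the 9 genes had an r with Tsc22d3 over 0.5, against 7.82% of the 17966 genes with a mean intensity of at least 100, whose median r was -0.0238. By that measure Ddit4 stood at place 47, Sgk1 at 186 and Fkbp5 at 217, while Zbtb16 stood at 3446. Among all 45 pairs of the 10 genes 43 had a positive r and 24 an r over 0.5, with a median of 0.518. The highest pair was Tsc22d3 with Ddit4, and Nfkbia with Sgk1 (0.75), Ddit4 (0.741) and Errfi1 (0.726) followed near the top. The pairs below 0 were Plin4 with Pdk4 (-0.243) and Sult1a1 with Pdk4 (-0.216). All values share the 12 arrays and their scaling.

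The genes whose deviations were most like those of Tsc22d3 were led by Klf9, a Kruppel-like factor also induced by glucocorticoids, with an r of 0.926 over 12 mice and 0.839 over 10. The core clock repressor Cry1 followed at 0.924 and Uhrf2 at 0.91. Bahd1 (0.901), the kinase gene Pak3 (0.896), Hectd2 (0.889), Lrrfip1 (0.888), Taf13 (0.885), the ubiquitin protease gene Usp15 (0.883) and Wdr12 (0.877) completed the first 10. The intensity of Klf9 itself was 2409.7 ± 136 in lactating and 2248 ± 163 in virgin mice, a log2 difference of 0.10 (SE 0.0539).

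The letters of the response element were looked for in the promoter windows of RefSeq (GRCm38.p6), which run from 250 bases before to 50 bases after a gene's start. The element searched was GNACA and TGTNC with 3 bases between them, which reads the same on both strands, and a single arm of it was AGAACA or, on the other strand, TGTTCT. The element occurred in 156 of all 32851 windows (0.475%) and a single arm in 6233 (19.0%). There were 17 windows for 9 of the genes, and none for Zbtb16. A single window, the fifth of 6 at Sgk1, held the element, 188 bases before the start, and it is shown because it is the sole match to the whole element. With the base on either side it also matches the single arm at both ends. Single arms occurred in 5 windows of 3 genes. Those of Tsc22d3, 185 bases before the start, and of Sult1a1, 212 and 34 bases before it, are shown beside it. Capitals mark the match.
Sgk1, chr10:21993678-21993738, plus strand: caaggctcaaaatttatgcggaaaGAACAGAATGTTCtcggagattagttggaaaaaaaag
Tsc22d3, chrX:140600678-140600731, minus strand: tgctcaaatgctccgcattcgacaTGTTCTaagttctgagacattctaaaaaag
Sult1a1, chr7:126676601-126676654, minus strand: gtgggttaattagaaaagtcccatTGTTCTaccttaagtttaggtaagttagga
Sult1a1, chr7:126676423-126676476, minus strand: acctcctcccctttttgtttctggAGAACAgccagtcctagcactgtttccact

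The windows of Fkbp5, Plin4, Errfi1, Ddit4, Pdk4 and Nfkbia held neither set of letters. A match in a window is a description and says nothing about binding in the septum. No match says only that these letters are not in the window.

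For the other genes of the hormone's pathway, whose lists were drawn up with earlier results known, counts rest on the unadjusted limma p, and beside each named gene stands a two-sided exact permutation p over the 924 ways to assign 6 of 12 mice, whose smallest possible value is 0.00216. The receptors themselves did not pass the test. Nr3c1 had an intensity of 1325 ± 65.5 in lactating and 1299.7 ± 69.8 in virgin mice, a log2 difference of 0.03 (95% interval -0.07 to 0.12, exact p = 0.556). Nr3c2 had a log2 difference of 0.00 (SE 0.0568, exact p = 0.983). Of the genes that handle the steroid, Hsd11b1, which regenerates active hormone inside cells, had -0.14 (exact p = 0.247), H6pd, which supplies its cofactor, had -0.02 (exact p = 0.628), and the drug pump gene Abcb1b had -0.06 (exact p = 0.489). None of the 7 measured genes of this list passed at an unadjusted p under 0.05, against 3.86% and 4.83% of all genes, and 1 did without lactating 5. Within the groups, Nr3c1 had an r of 0.64 with Tsc22d3 and Nr3c2 one of 0.23.

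Of 17 measured genes for chaperones that fold the receptor and for coregulators that work with it on DNA, 5 (29.4%) were higher in lactating mice and 0 were lower by limma, against 3.86% and 4.83% of all genes. All 5 were chaperones or co-chaperones. The split holds for limma only. By the exact test the coregulator gene Smarca4 (0.06, exact p = 0.0238) and the chaperone gene Hspa8 (0.06, exact p = 0.00649) also lay under 0.05. Stip1, which bridges Hsp70 and Hsp90, was 4301 ± 174 against 3888 ± 97.0, a log2 difference of 0.14 (SE 0.028, exact p = 0.00216), and all 6 lactating mice lay above every virgin mouse. Dnajb1, an Hsp40 co-chaperone, differed by 0.30 (exact p = 0.0108), Fkbp4, the partner that competes with Fkbp5 for the receptor, by 0.15 (exact p = 0.0325), St13 by 0.11 (exact p = 0.0216) and Bag1 by 0.12 (exact p = 0.0476). The median of the list was 0.05, and its count was 3 without virgin 1. All 17 genes lay above the median intensity, and with only such clusters fitted 6 were higher and 0 lower. Of those clusters, which are fewer and were fitted apart, 1142 were higher and 501 lower, against 1160 and 1668 of all clusters. The shares of all genes are therefore not those of genes as bright as this list. Stip1 was picked by the study on these arrays and is not independent evidence. Several of these genes also answer to heat shock, and Dnajb1 had an r of 0.861 with Tsc22d3 within the groups.

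Of 41 other known glucocorticoid targets that were measured, 8 were higher, 2 lower and 31 did not pass, with a median log2 difference of 0.05. The share that was higher, 19.5%, stood against 3.86% of all genes, and the share that was lower, 4.88%, against 4.83%. Most of the list was bright, with 31 of the 41 above the median intensity. With only such clusters fitted, 8 of these were higher and 1 lower, and of all those clusters 1142 were higher and 501 lower. Mertk, a receptor for the engulfment of cell debris, was 1473 ± 111 against 1219 ± 139, a log2 difference of 0.27 (exact p = 0.0108). Hif3a, a hypoxia-inducible factor, was 437 ± 67.4 against 343 ± 20.0, a difference of 0.32 (exact p = 0.013). Mfsd2a, a lipid transporter of the blood-brain barrier, differed by 0.23 (exact p = 0.00866). In each of these 3 genes 5 of 6 lactating mice lay above every virgin mouse. The repressor Bcl6 (0.19), the connexin gene Gjb6 (0.22), the factor Klf15 (0.13), Sesn1 (0.10) and the endothelin gene Edn1 (0.21) were also higher by limma, at exact permutation p of 0.0216 to 0.0563. Glul, which the study listed as higher on these arrays and also found higher by qPCR, was among those that did not pass (0.05, exact p = 0.117). It has 2 clusters and was read from the one of higher mean, and the other is not given here.

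The targets that were lower were the metal-binding Mt2, at -0.11 (exact p = 0.00433), and the liver enzyme gene Tat, at -0.12 (exact p = 0.0411). Mt2 is commonly raised by the hormone, and it too was picked by the study on these arrays. The adjusted p of these 10 genes was 0.619 to 0.623. The count of 10 fell to 6, with 5 higher and 1 lower, when lactating 5 or virgin 2 was left out. Among the targets that did not pass, Lcn2 spread widely in virgin mice, from 155.7 to 10494.6, against 141.4 to 209.6 in lactating mice (exact p = 0.606). Within the groups, 9 of the 41 targets had an r with Tsc22d3 over 0.5, against 7.82% of the 17966 genes with a mean intensity of at least 100. They were Klf9, Per1 (0.799), Rasd1 (0.745), Mfsd2a (0.721), Hif3a (0.612), Bcl6 (0.601), Rhob (0.566), Sesn1 (0.559) and Mertk (0.554). The clock gene Per1 and Rasd1, which are named for that r after it was seen, had log2 differences between the groups of 0.12 and 0.17 and did not pass. The median r of the list was 0.0482, against -0.0238 for those 17966 genes, and Gadd45b (-0.641) and Crispld2 (-0.596) ran the other way. An r over 0.5 was not particular to the targets, as 5 of the 17 chaperones and coregulators had one, with a median r of 0.306. So had 3 of the 8 septum markers, with a median r of 0.487. The part of the septum markers in the r values of the other genes was not tested.

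**Figure D5:**
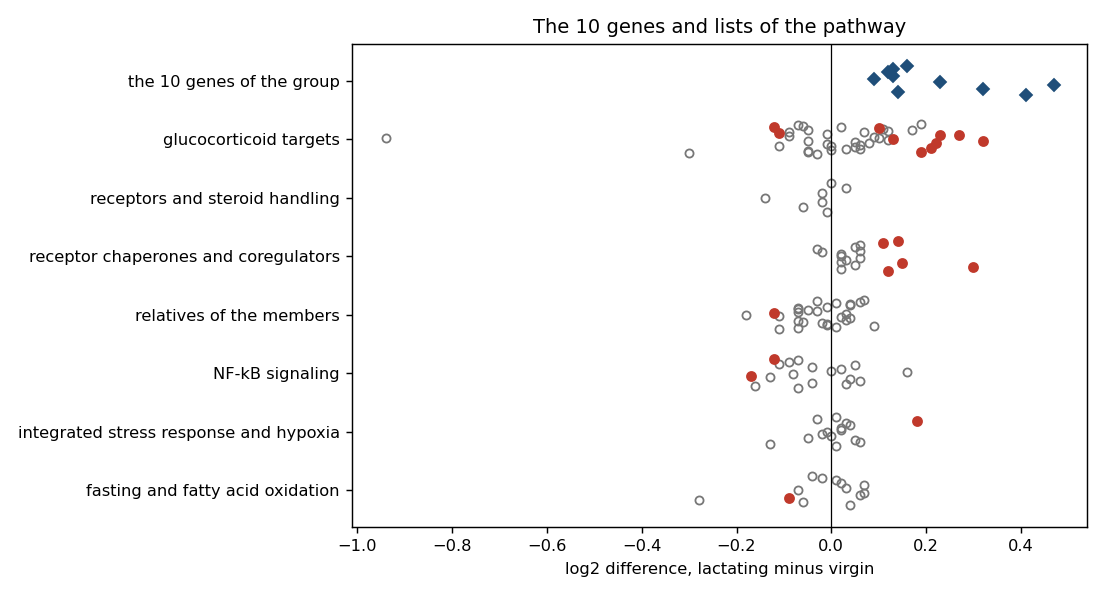
Log2 difference, lactating minus virgin, for the 10 genes (blue diamonds) and for each measured gene of 7 lists of the same pathway and its neighbors. Red filled points had an unadjusted limma p under 0.05 and grey open points did not, and the targets hold 8 and the chaperones and coregulators 5 of the red points above 0, with Slc2a1 as the other.

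Of 28 relatives of the 10 genes (other genes of the Tsc22, Fkbp, Sgk, Plin, Pdk and similar families) 0 were higher and 1 (3.57%) was lower, near the 3.86% and 4.83% of all genes, with a median log2 difference of -0.02. When single mice were left out, 1 was higher and 2 were lower without virgin 4, 0 and 2 without virgin 3, 1 and 1 without lactating 1, and 0 passed without lactating 3, 5 or 6 or virgin 1, 2 or 5. The lower one was Plin5, a lipid droplet coat gene of the same family as Plin4, at -0.12 (exact p = 0.0281). Plin1 (-0.11, exact p = 0.0736) and Plin2 (-0.18, exact p = 0.0887), also droplet coats, and Fkbp2 (0.09, exact p = 0.121) did not pass.

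Of 18 genes of NF-kB signaling, to which Nfkbia belongs, 0 were higher and 2 (11.1%) were lower, against 3.86% and 4.83% of all genes, with a median of -0.06. Without virgin 3 or virgin 4, 1 was higher and 3 were lower, and 1 was lower without lactating 1, 3 or 5 or virgin 1, 5 or 6. The lower ones were the cytokine gene Il6, at -0.17 (exact p = 0.0368) and a dim 21.4 ± 2.53 against 26.0 ± 3.40, and the adhesion gene Vcam1, at -0.12 (exact p = 0.0498). Nfkb2 (-0.08, exact p = 0.0671) and the cytokine gene Il1b (-0.13, exact p = 0.126) did not pass. Only 7 of the 18 genes lay above the median intensity, and with only such clusters fitted 0 were higher and 1 lower. Of all clusters 1668 were lower, against 501 of the fewer clusters above the median, fitted apart. The 4.83% is therefore not the share of genes as dim as this list. Of 8 markers of microglia 3 (37.5%, against 4.83% of all genes) were lower, P2ry12, picked by the study on these arrays, at -0.12 (exact p = 0.00866), Trem2 at -0.18 (exact p = 0.039) and Cx3cr1 at -0.11 (exact p = 0.00216). The summed intensity of the 8 markers was 4163 to 4524 in lactating and 4246 to 5547 in virgin mice, with virgin 6 at the top. Virgin 6 also had the highest sum of astrocyte markers among the virgin mice. The part of the microglia markers, and of that mouse, in the values of this list was not tested.

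Of 15 genes of the stress response and of hypoxia, to which Ddit4 also answers, 1 (6.67%, near the 3.86% of all genes) was higher, the glucose transporter gene Slc2a1, at 0.18 (exact p = 0.00649), a gene the study picked on these arrays. The factor gene Atf4 (0.06, exact p = 0.136), Atf3 (-0.13, exact p = 0.301) and Bnip3 (0.05, exact p = 0.236) did not pass. The count of this list was 1 whichever mouse was left out. Of 13 genes of fasting and fatty acid oxidation, the usual company of Pdk4, 0 were higher and 1 (7.69%, near the 4.83% of all genes) was lower, Cpt1a, the entry enzyme of the mitochondrion, at -0.09 (exact p = 0.0108). Ppara (0.07, exact p = 0.0584), Cpt2 (0.07, exact p = 0.0801) and Cpt1c (0.06, exact p = 0.216) did not pass. None of the fasting genes passed without lactating 1, 2, 3 or 4 or virgin 5. The direction turned without virgin 4, with 2 higher and 0 lower, without virgin 3 and after median subtraction, with 1 higher and 0 lower each, and without virgin 6 there was 1 in each direction.

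Cell type markers were set beside Tsc22d3 in the same way. The mean of each of 11 marker lists was correlated with Tsc22d3 within the groups, and 0 of 11 passed after adjustment by r. The septum markers came nearest, with an r of 0.621 (permutation p = 0.0446, adjusted p = 0.49) and a rho of 0.727 (permutation p = 0.0145, adjusted p = 0.16), and an r of 0.784 without lactating 6 and virgin 2. Markers of neurons had an r of 0.0132 (permutation p = 0.97) and those of astrocytes one of -0.16 (permutation p = 0.628). Of the marker genes of neurons, oligodendrocytes, endothelium, pericytes, septum, striatum and cortex 0 passed between the groups. Still, 0 of the 6 striatal markers had a positive log2 difference, with a median of -0.15. Of the 7 markers of excitatory neurons of cortex and hippocampus 6 had a positive difference, with a median of 0.23. The summed intensities of both lists overlapped between the groups. The part of these markers in the differences of Tsc22d3 and the other genes was not tested. Of the astrocyte markers Gjb6 was higher (exact p = 0.0368), which is the same value already counted among the higher targets. Of the 3 blood markers measured Alas2 was higher (0.31, exact p = 0.0433). Of the choroid plexus markers Clic6 was higher (0.16, exact p = 0.0671) and Slc4a5 lower (-0.12, exact p = 0.0563) by limma alone.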

How the data were processed

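RNA from the septum of 12 mice was hybridized to Mouse Gene 1.0 ST arrays. The authors summarized probes into transcript clusters and normalized them with PLIER and GC bin background correction in Affymetrix Power Tools 1.12.0 (per the submitters' processing notes), and the deposited values are intensity on a linear scale. The genome build of the array annotation is not given in the sources used here. Gene loci and promoters are from RefSeq GRCm38.p6. Of the clusters, 21789 carry 1 gene symbol, 1621 several and 12146 none in GEO's platform annotation. Clusters with several symbols were not named.

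From these intensities log2(intensity + 16) was computed. The study used limma without stating the scale, and here limma 3.58.1 (R 4.3.3) was fitted to the 6 lactating and 6 virgin mice over all 35556 clusters (lmFit, eBayes, two-sided, Benjamini-Hochberg). Single genes outside the 10 were also given an exact permutation p. A gene with several clusters was read from the one with the highest mean. The rank of a difference is over 1 cluster per gene. Correlations used deviations from the group mean on the log2 scale, with 100000 permutations of mice within each group, two-sided. The scripts were tested on simulated data. The 12 arrays limit the precision.

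The members and the lists of other genes were chosen with earlier results of these data known. Named beside the members were Nr3c1, Nr3c2, the 4 genes of smallest p in each list, any others with p under 0.05, and the 10 genes most like Tsc22d3 among those with a mean intensity of at least 100. Further genes, such as Per1, Rasd1, Lcn2, Glul, Smarca4 and Hspa8, were named once the data had been seen. The alternatives were linear intensities, 1 added before log2, quantile normalization, median subtraction, cyclic loess (added once the data had been seen), clusters above the median or with 1 symbol, a variance trend with robust fit, array weights, the mean over a gene's clusters, replicate number as a block, and each mouse left out.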

Additional observations from a re-analysis of the deposited data

Results flagged for a closer look

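Each of the 10 genes was examined for a mouse far from the others of its group, in 20 groups of 6, by the gap to the nearest mouse over the whole range of the group. In 3 groups a mouse stood beyond Dixon's 95% critical value, where chance gives about 1 in 20. Fkbp5 was lowest in lactating 6, at an intensity of 484.7, with a gap of 0.635 of the range. Sult1a1 was also lowest in lactating 6, at 236.5 (0.677 of the range). Zbtb16 was highest in lactating 4, at 1167.1 (0.732 of the range). These values stayed in all comparisons.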

How the results depend on the processing

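The log2 difference of each of the 10 genes stayed positive under all 20 alternatives, at 0.36 to 0.46 for Tsc22d3, 0.35 to 0.54 for Zbtb16 and 0.06 to 0.13 for Plin4, and their median at 0.12 to 0.18. The number of genes that followed Tsc22d3 within the groups (3) was 1 on linear intensities, and 0 to 4 when single mice were left out. Of all clusters, 2828 had an unadjusted p under 0.05, against 1864 (without lactating 3) to 4058 (without virgin 3) with single mice left out. The clusters above the median intensity, fitted alone, gave 1643. These are fewer clusters, so that count cannot be set against 2828 as a fall. An adjusted p under 0.05 was reached by 0 or 1 cluster under each alternative. The split of the 2828 into 1160 higher and 1668 lower was 1569 and 1274 on linear intensities and 2027 and 992 after median subtraction. It was 1300 and 1191 after quantile normalization and 1340 and 1129 after cyclic loess, so the shares of all genes set beside a list depend on the scaling. Above the median intensity, with the scaling of the main fit, it was 1142 and 501, so the shares also depend on how bright the genes are. The cause was not tested.

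With single mice left out, the count of passing genes ran from 6 to 13 for glucocorticoid targets, 3 to 7 for chaperones and coregulators, 0 to 1 for receptors and steroid handling, 0 to 3 for relatives, 1 to 4 for NF-kB and 0 to 2 for fasting. The relatives (1) had 0 after quantile normalization, median subtraction or cyclic loess. The fasting list (1 lower) had 2, 1 each way, after quantile normalization or cyclic loess, and 1 higher after median subtraction. NF-kB (2) had 1 after median subtraction, above the median intensity and with the variance trend. The counts of the last 3 lists rest on 1 or 2 genes.

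According to its methods the study prepared RNA pairwise across the groups, without naming the pairs. For 2 of the 6 replicate numbers the deviations of both mice correlated above 0.1 (range over all -0.027 to 0.25), and 4 of 12 mice correlated best with their own number, so the numbers were not taken as pairs. With replicate number as a block, 3194 clusters passed, with 1159 higher and 2035 lower, and 7 glucocorticoid targets (5 higher, 2 lower), 4 chaperones or coregulators, 2 relatives, 1 NF-kB gene and 0 fasting genes, and 1 gene passed with Tsc22d3, Ddit4 (r 0.963), although the r of Sgk1 (0.878, adjusted permutation p = 0.099) and Fkbp5 (0.784, adjusted permutation p = 0.179) rose too.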
